A study of Mus musculus with 12 samples.

Results

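The 41 genes described here encode the machinery with which a mouse cell copies its DNA and divides. They were chosen by name, with earlier results of these data known. All 41 were among the 20551 genes of the deposited count table and among the 13729 that passed the low-count filter. Expression was measured by RNA sequencing of airway macrophages (AMs), the phagocytes that live on the airway and alveolar surface. AMs came from 6-week-old female C57BL/6 mice that carried a Scnn1b transgene (Scnn1b-Tg) and from wild-type (WT) littermates. Scnn1b encodes a subunit of the epithelial sodium channel, and the CCSP promoter drives the transgene in airway club cells, and these mice develop mucus obstruction of the airways. Each pool held the lavages of 3 to 4 animals, and each of the 6 pools (WT 16, 17 and 18, and Scnn1b-Tg 17, 18 and 19) gave 1 library after 12 h in medium and 1 after 12 h with 100 ng/ml lipopolysaccharide (LPS) from Pseudomonas aeruginosa. This gave 3 libraries for each genotype and treatment.

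Cell division runs through a fixed order of steps. E2F factors, held back by the retinoblastoma family, switch on the S phase genes in late G1. Minichromosome maintenance (MCM) helicases are loaded on origins and fired, and nucleotide enzymes supply the building blocks. Later in the cycle the MuvB complex, with B-MYB and FOXM1, switches on the cyclins, kinases and motor proteins of mitosis. Resident AMs are long-lived cells that renew themselves in the lung by slow local division, so messages of this kind come from a small cycling share of the cells or from low levels in many. In these bulk libraries, fewer cycling cells and less message per cell cannot be told apart.

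Libraries held 48.2 to 60.9 M deposited counts. Libraries fell into batches 1 (pools WT 16, WT 17 and Tg 17) and 2 (WT 18, Tg 18 and Tg 19), as the labels call them. The study's methods name the date of library preparation as the covariate of the LPS experiment. The labels describe lavage cells that adhered to plastic, whereas the methods describe sorting from digested lungs, and purity was not measured here. All 12 AM markers passed the filter, and their summed level was 11837 to 20210 counts per M counts (CPM) over the libraries. Most of them were called with LPS, 6 lower and 3 higher in WT and 7 lower and 3 higher in Scnn1b-Tg AMs, and among those lower Siglecf ranged from 5.08 to 128 CPM and Fabp4 from 18 to 387 CPM over the libraries. Of the other cell types, the 6 monocyte markers summed to 0.937 to 2.49 CPM, the 4 B cell markers to 0 to 1.12 CPM, the 3 endothelial markers to at most 0.766 CPM, the 3 erythroid markers found to at most 0.301 CPM and the 2 eosinophil or mast cell markers found to at most 0.0944 CPM. The 4 dendritic cell markers found summed to 0.754 to 3.57 CPM and the 4 fibroblast markers to 1.62 to 5.2 CPM, mostly Pdgfra. Cd3e, Cd3d and Cd3g, the CD3 subunits of the T cell receptor complex, did not exceed 0.677 CPM, and Trac, a receptor chain gene, did not exceed 0.28 CPM. However, Cd2 of the same list of 6 lay between 12.4 and 208 CPM and fell with LPS. Of the neutrophil markers, S100a9 was at 0 in 10 libraries, while S100a8 (2.0 to 14.2 CPM) and Csf3r (1.94 to 8.87 CPM) were measured in every library, and in both genotypes S100a8 was called higher and Csf3r lower with LPS. The 6 epithelial markers, chiefly Scgb1a1 (13.8 to 71.7 CPM) and Sftpc (13.6 to 32.6 CPM), summed to 79.7 to 103 CPM in WT medium and 75.1 to 115 CPM in WT LPS libraries, and to 35.8 to 67.3 and 33.0 to 62.0 CPM in those of Scnn1b-Tg AMs, so that the genotypes did not overlap. None of the 5 epithelial markers tested was called between the genotypes. Their median log2 difference, Scnn1b-Tg minus WT, was -0.82 in medium and -0.91 with LPS. Between LPS and medium, Epcam (0.266 to 1.69 CPM) was called lower in Scnn1b-Tg AMs and no other epithelial marker was called. Whether any of these cells carried part of the messages below was not tested.

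At rest the levels of the 41 genes, given here as CPM per kb of exon so that genes can be compared, spanned from 0.127 ± 0.0242 for Cdc6 to 55.9 ± 9.15 for Pcna in WT medium (mean ± SD, n = 3). Pcna, the sliding clamp of the replication fork, stood highest in WT medium, followed by Mcm3 (17.5 ± 2.3), Cdt1 (13.0 ± 2.27), Bub1b (12.6 ± 0.63) and E2f1 (11.0 ± 0.307). The libraries of Cdt1 overlapped with those of Bub1b and E2f1, while those of the other neighbours in this order did not overlap. The other mitotic genes lay lower, with Ccnb2 at 6.24 ± 1.51, Mki67 at 1.72 ± 0.53 and Top2a at 1.53 ± 0.396 CPM per kb. Exon length was taken over all annotated isoforms, which understates genes with long unused exons. The lowest count of any of the 41 genes in any library was 12, and low values carry more counting error.

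LPS lowered many of these genes and raised few. In WT AMs 19 of the 41 genes were lower with LPS and 1 was higher (edgeR adjusted p under 0.05), where 15.7% of all genes tested were lower and 15.2% higher. In Scnn1b-Tg AMs 17 were lower and 3 higher, where 17.8% of all genes were lower and 18.8% higher. The median log2 fold change of the 41 genes was -0.52 in WT and -0.38 in Scnn1b-Tg AMs, beside 0.0 and -0.02 over all genes. The 16 genes lower in both genotypes were Mcm3, Rrm1, Rrm2, Tk1, Ccna2, Ccnb1, Ccnb2, Aurkb, Cdc20, Cenpa, Cenpf, Birc5, Kif11, Kif20a, Kif23 and Anln. Bub1, Prc1 and Nusap1 were called lower in WT alone and Mcm2 in Scnn1b-Tg alone, and no difference between the genotypes passed for these 4 genes. A total of 18 genes were called in neither genotype, among them Mki67, Top2a, Pcna, Cdk1 and E2f1. All LPS libraries lay below all medium libraries of the same genotype for 9 of the 41 genes in WT and for 7 in Scnn1b-Tg AMs. The share of genes separated downward was near that of all genes tested in WT and below it in Scnn1b-Tg AMs, and the share separated upward was below it in both. Such separation, given for single genes below, was thus no more common among the 41 genes than among genes at large to any clear degree, and this was not tested.

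**Figure D1:**
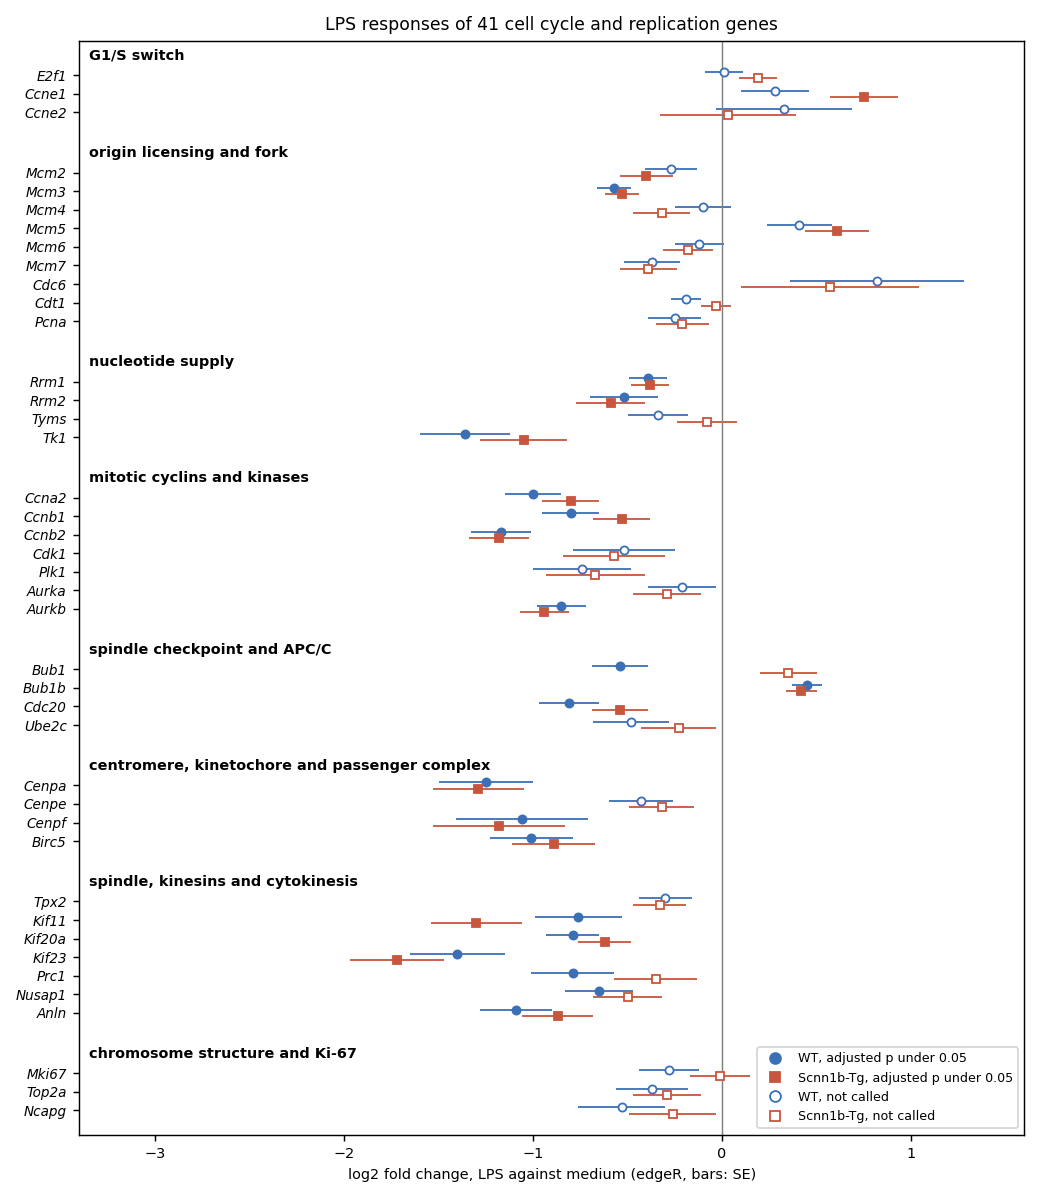
Log2 fold change of each of the 41 genes with LPS against medium in WT (blue circles) and Scnn1b-Tg (red squares) AMs, with standard errors; filled symbols passed the adjusted p of 0.05. Most symbols lie left of 0, Kif23 farthest in both genotypes, and Bub1b is the gene called to the right in both.

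By their numbers, the medium and LPS libraries of a pool came from the same animals, so the change can also be read within each pool. Of the 41 genes, 36 were below medium in pool WT 16, 34 in WT 17, 38 in WT 18, 35 in Tg 17, 34 in Tg 18 and 32 in Tg 19. The median log2 change of the 41 genes was -0.33 and -0.43 in the batch 1 WT pools, -0.68 in WT 18, -0.36 in Tg 17, and -0.51 and -0.33 in the batch 2 Tg pools. Over all genes the median lay between -0.02 and 0.0 in these pools. A lower median of the 41 genes was thus seen in both batches and in each pool. A total of 29 genes were below medium in all 6 pools, beside 25.0% of all genes tested, and Mcm5 and Bub1b were above medium in all 6, beside 23.9%. With the pool fitted as a fixed effect in place of the batch, 24 genes were lower in WT and 23 in Scnn1b-Tg AMs, where 18.6% and 20.8% of all genes were lower. This paired fit added Cdk1, Pcna, Plk1 and Tpx2 in both genotypes, Tyms and Ube2c in WT, and Mcm7 and Nusap1 in Scnn1b-Tg AMs, and Rrm2 lost its call in WT. Without a batch term the count of lower genes fell to 6 in each genotype. That is no larger a share than the 15.7% and 17.8% of all genes that were lower in the main fit. The share of all genes without a batch term is not given here. The number of genes called lower in WT was 12 without the medium library of WT 18, 12 without its LPS library and 11 without the whole pool. In Scnn1b-Tg AMs it was 11 without pool Tg 17 and 9 without pool Tg 18, and without pool Tg 18 the number called higher there was 1. Shares of all genes are not given for these smaller sets of libraries.

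No gene of the G1/S switch was called lower. E2f1, the activator of S phase genes, read 34.5, 33.7 and 35.6 CPM in the 3 WT medium libraries and 32.3, 39.6 and 32.3 CPM in the WT LPS libraries. In Scnn1b-Tg AMs it read 31.0, 36.5 and 33.3 CPM in medium and 40.8, 37.8 and 36.2 CPM with LPS. The groups overlapped in both genotypes, and the log2 fold change was 0.01 in WT and 0.19 in Scnn1b-Tg AMs (edgeR adjusted p = 0.979 and 0.186). Ccne1 encodes cyclin E1, the partner of CDK2 at S phase entry. It went from 3.25, 3.31 and 3.57 CPM to 4.24, 5.84 and 7.15 CPM in Scnn1b-Tg pools 17, 18 and 19, with all LPS libraries above all medium libraries. This was a log2 fold change of 0.75 (edgeR, SE 0.18, adjusted p = 0.00759). In WT AMs Ccne1 read 2.7, 3.5 and 3.9 CPM in medium and 3.99, 4.35 and 3.76 CPM with LPS, a log2 fold change of 0.28 that was not called (edgeR adjusted p = 0.296). Its groups overlapped there, and the difference between the genotypes did not pass (edgeR adjusted p = 0.908). Ccne2, the second cyclin E gene, shares exon sequence with Ints8 and was near 1 CPM in every group.

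Among the 9 genes of origin licensing and the fork, Mcm3 was lower in both genotypes, Mcm2 was called lower in Scnn1b-Tg AMs and Mcm5 was called higher there. MCM2 to MCM7 form a single ring-shaped helicase, so these are subunits of 1 complex. Mcm3 (ENSMUSG00000041859, chromosome 1, 20802968 to 20820312) read 62.9, 75.2 and 58.5 CPM in WT medium and 46.7, 50.1 and 36.4 CPM in WT LPS libraries. It read 68.2, 56.2 and 58.3 CPM in Scnn1b-Tg medium and 51.0, 39.1 and 36.9 CPM in Scnn1b-Tg LPS libraries. No LPS library reached the lowest medium library of its genotype. The log2 fold changes were -0.57 (edgeR, SE 0.09, adjusted p = 0.000565) in WT and -0.53 (edgeR, SE 0.09, adjusted p = 0.000659) in Scnn1b-Tg AMs. Mcm5 moved the other way, from 12.9, 7.95 and 9.88 CPM to 24.5, 13.9 and 10.2 CPM in Scnn1b-Tg AMs. The groups overlapped, since pool 19 with LPS lay below pool 17 in medium, and the log2 changes within pools Tg 17, 18 and 19 were 0.93, 0.80 and 0.05. Its fitted log2 fold change was 0.61 (edgeR, SE 0.17, adjusted p = 0.0172) in Scnn1b-Tg and 0.41 in WT AMs (edgeR adjusted p = 0.0998). With the pool as a random effect Mcm5 was also called in WT AMs (limma adjusted p = 0.0422), and so it was in edgeR without the LPS library of pool Tg 19, which made 2 genes higher. Mcm2 fell in Scnn1b-Tg AMs, at a log2 change of -0.40 (edgeR, SE 0.14, adjusted p = 0.0381), and Mcm4, Mcm6 and Mcm7 had log2 fold changes of -0.10, -0.12 and -0.37 in WT that were not called. When the pool was a random effect, Mcm7 was lower in both (limma adjusted p = 0.0464 in WT and 0.0234 in Scnn1b-Tg AMs). The loading factors Cdc6 and Cdt1 were not called in either genotype with the batch term, and with the pool as a random effect Cdt1 was lower in WT (log2 -0.19, limma adjusted p = 0.0445). Cdc6 lay between 0.228 and 1.86 CPM. Pcna read 148, 109 and 145 CPM in WT medium and 133, 89.8 and 115 CPM in WT LPS libraries, and 108, 118 and 118 against 91.8, 98.1 and 107 CPM in Scnn1b-Tg AMs. Pools differed by more than the treatment in WT, where the groups overlapped, and every pool was lower with LPS. Its log2 fold change was -0.25 in WT and -0.21 in Scnn1b-Tg AMs, with edgeR adjusted p of 0.229 and 0.296, and of 0.0154 and 0.0303 with the pool as a fixed effect.

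Of the 4 nucleotide genes, Rrm1, Rrm2 and Tk1 were lower in both genotypes. Tk1 encodes thymidine kinase 1, which salvages thymidine in S phase, and its exons overlap those of Afmid, which counting without strand could not separate. It went from 2.6, 1.71 and 1.87 CPM to 0.799, 0.746 and 0.869 CPM in the WT pools, while the Scnn1b-Tg pools went from 2.4, 3.21 and 2.35 CPM to 1.23, 1.48 and 1.12 CPM. Each LPS library was below each medium library of its genotype. The log2 fold changes were -1.36 (edgeR, SE 0.24, adjusted p = 0.00133) and -1.05 (edgeR, SE 0.23, adjusted p = 0.00432). Rrm1 and Rrm2 encode the large and small subunits of ribonucleotide reductase, which makes deoxynucleotides. Rrm1 fell by 0.39 on the log2 scale in WT and by 0.38 in Scnn1b-Tg AMs (edgeR adjusted p = 0.0097 and 0.0094). Rrm2 went from 9.19, 9.88 and 7.55 CPM to 7.33, 8.67 and 3.66 CPM in WT AMs, and WT 18 had the lowest value of each group. Its log2 fold change was -0.52 (edgeR, SE 0.18, adjusted p = 0.0473) in WT, and with the pool as a fixed effect its adjusted p was 0.0548. Without pool WT 18 the value was -0.23, without its medium library it was -0.29, and neither passed. Tyms, thymidylate synthase, was not called in the unpaired fit, with log2 fold changes of -0.34 and -0.08.

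Mitotic genes were the larger part of the genes called lower. Of the 25 genes of mitosis, 15 were lower and 1 higher in WT and 12 lower and 1 higher in Scnn1b-Tg AMs, with median log2 fold changes of -0.76 and -0.54. Of the 16 genes of replication and the G1/S switch, 4 were lower and 0 higher in WT and 5 lower and 2 higher in Scnn1b-Tg AMs, with medians of -0.22 and -0.2. Of all genes tested, 15.7% were lower and 15.2% higher in WT, and 17.8% lower and 18.8% higher in Scnn1b-Tg AMs. The difference between the mitotic and the other set was not tested. Summed over each set, the level went from 294 ± 56.5 to 228 ± 57.1 CPM for the mitotic genes and from 447 ± 14.4 to 380 ± 38.2 CPM for the others in WT AMs, and the Scnn1b-Tg sums were 291 ± 95.9 and 234 ± 69.0 CPM for the mitotic and 407 ± 26.6 and 356 ± 42 CPM for the other genes (mean ± SD, n = 3 each). In CPM the difference in mean sums was thus similar for both sets, but the mitotic sum started lower, so its relative fall was larger. The mitotic sum also holds Bub1b, which rose with LPS. Kif23 encodes a kinesin of the central spindle that is needed for cytokinesis. Kif23 (ENSMUSG00000032254, chromosome 9, 61915905 to 61946774) read 9.04, 10.9 and 7.98 CPM in WT medium and 3.71, 4.82 and 2.46 CPM in WT LPS libraries. In Scnn1b-Tg AMs it read 16.7, 10.2 and 7.25 CPM in medium and 5.65, 3.14 and 1.76 CPM with LPS. All LPS libraries lay below all medium libraries of the same genotype, and Kif23 had the largest fall of the 41 genes in both. Its log2 fold changes were -1.40 (edgeR, SE 0.25, adjusted p = 0.00154) in WT and -1.72 (edgeR, SE 0.25, adjusted p = 0.0003) in Scnn1b-Tg AMs. Kif11, the motor that pushes spindle poles apart, fell by 1.30 on the log2 scale in Scnn1b-Tg AMs (edgeR, SE 0.24, adjusted p = 0.00131) and by 0.76 in WT AMs (adjusted p = 0.0304). Its pools changed by -0.81, -0.70 and -0.75 in WT and by -1.08, -2.05 and -0.74 in Scnn1b-Tg AMs, with Tg 18 the lowest. Kif20a, a kinesin of the midzone whose exons overlap those of Cdc23, and Anln, anillin of the contractile ring, were lower in both genotypes, with log2 fold changes of -0.79 and -1.09 in WT and -0.62 and -0.87 in Scnn1b-Tg AMs. Prc1 and Nusap1, which bundle and stabilise spindle microtubules, were called in WT (log2 -0.79 and -0.65), and Tpx2, the activator of Aurora A on the spindle, was called in both genotypes with the pool as a fixed effect.

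At the centromere and kinetochore, Cenpa, Cenpf and Birc5 were lower in both genotypes. Cenpa encodes the histone H3 variant that marks centromeres. Cenpa (ENSMUSG00000029177, chromosome 5, 30666777 to 30674830) went from 11.6, 9.33 and 8.34 CPM to 6.35, 2.88 and 3.15 CPM in the WT pools, while the Scnn1b-Tg pools went from 12.6, 11.8 and 9.36 CPM to 5.02, 4.77 and 4.0 CPM. The groups did not overlap, and the log2 fold changes were -1.25 (edgeR, SE 0.25, adjusted p = 0.00276) and -1.29 (edgeR, SE 0.24, adjusted p = 0.00179). Birc5 (survivin, of the chromosomal passenger complex) changed by -1.01 and -0.89 on the log2 scale, and Cenpf by -1.06 and -1.18. The Cenpf call in WT held in 12 of 28 alternative settings (log2 -1.49 to -0.74), and it was lost when any of several single libraries was left out, those of WT 18 among them, and without a batch term. Cenpf was low, at 3.2 ± 0.872 CPM in WT medium (mean ± SD, n = 3). Cenpe, a kinetochore motor, was not called, with log2 fold changes of -0.43 and -0.32.

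Of the 7 mitotic cyclins and kinases, Ccna2, Ccnb1, Ccnb2 and Aurkb were lower in both genotypes. Ccnb2 encodes cyclin B2, a partner of CDK1. Ccnb2 (ENSMUSG00000032218, chromosome 9, 70407692 to 70421547) read 10.4, 11.3 and 6.93 CPM in WT medium and 4.69, 4.63 and 3.27 CPM in WT LPS libraries, and in Scnn1b-Tg AMs 18, 9.78 and 7.36 CPM in medium and 8.22, 3.61 and 3.74 CPM with LPS. WT groups did not overlap, whereas in Scnn1b-Tg AMs the LPS library of pool 17 lay above the medium library of pool 19. The log2 fold changes were -1.17 in WT (edgeR, SE 0.16, adjusted p = 0.000302) and -1.18 in Scnn1b-Tg AMs (adjusted p = 0.000203). Aurkb, the kinase of the passenger complex, fell by 0.85 in WT and by 0.94 in Scnn1b-Tg AMs on the log2 scale, while Aurka, its relative at the spindle poles, had log2 fold changes of -0.21 and -0.29 and was not called. Ccna2 (cyclin A2) fell by 1.00 in WT and by 0.80 in Scnn1b-Tg AMs, and Ccnb1 (cyclin B1) by 0.80 and 0.53. Cdk1, their kinase, read 10.8, 6.78 and 7.21 CPM in WT medium and 8.37, 4.16 and 4.82 CPM in WT LPS libraries. It was lower in every pool, but the groups overlapped in WT and it was called with the pool as a fixed effect in WT AMs (edgeR adjusted p = 0.0396, against 0.176 with the batch term) and with the pool as a fixed or random effect in Scnn1b-Tg AMs. Plk1, Polo-like kinase 1, was called with the pool as a fixed or random effect in both genotypes (log2 -0.74 and -0.67).

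**Figure D2:**
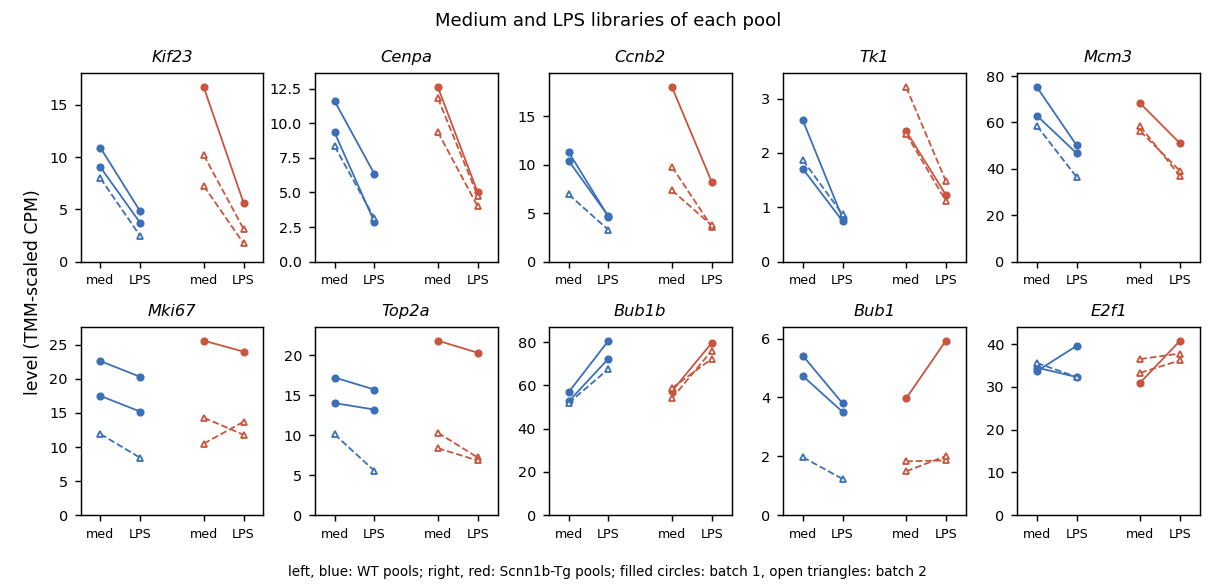
Level (TMM-scaled CPM, linear axes from 0) of 10 of the genes in the medium and LPS library of each pool, joined by a line; WT pools are blue and Scnn1b-Tg pools red, with filled circles for batch 1 and open triangles for batch 2. Lines of Kif23, Cenpa, Ccnb2, Tk1 and Mcm3 go down in all 6 pools, those of Bub1b go up in all 6, and those of Bub1 go down in the WT and up in the Scnn1b-Tg pools.

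Among the genes of the spindle checkpoint and the anaphase-promoting complex, Bub1b was higher in both genotypes, Cdc20 lower in both and Bub1 lower in WT AMs. Bub1 and Bub1b encode 2 related checkpoint proteins (BUB1 and BUBR1) that hold back anaphase. Bub1b (ENSMUSG00000040084, chromosome 2, 118598211 to 118641591) read 52.6, 56.9 and 51.9 CPM in WT medium and 72.4, 80.7 and 67.6 CPM in WT LPS libraries, and 57.4, 54.1 and 58.8 against 79.7, 76.1 and 72.3 CPM in Scnn1b-Tg AMs. Each LPS library was above each medium library. The log2 fold changes were 0.45 (edgeR, SE 0.08, adjusted p = 0.00108) and 0.42 (edgeR, SE 0.08, adjusted p = 0.00133), and Bub1b was the gene of the 41 that was called higher in both genotypes. Its level per kb was also above that of Bub1, at 12.6 ± 0.63 against 0.928 ± 0.419 CPM per kb in WT medium (mean ± SD, n = 3 each). Bub1 read 4.73, 5.42 and 1.97 CPM in WT medium and 3.51, 3.8 and 1.23 CPM in WT LPS libraries, which is lower in every pool, with a log2 fold change of -0.54 (edgeR, SE 0.15, adjusted p = 0.0192). In Scnn1b-Tg AMs it read 3.97, 1.83 and 1.49 CPM in medium and 5.93, 1.86 and 2.01 CPM with LPS, with a log2 fold change of 0.35 (edgeR adjusted p = 0.0962; limma adjusted p = 0.0152 with the pool as a random effect). Cdc20, an activator of the anaphase-promoting complex whose exons overlap those of Elovl1, was lower in both genotypes (log2 -0.81 and -0.54), and Ube2c, its ubiquitin-conjugating enzyme, was not called with the batch term (log2 -0.48 and -0.23).

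Mki67, Top2a and Ncapg were not called in either genotype. Mki67 encodes Ki-67, which coats mitotic chromosomes. It read 17.5, 22.6 and 11.9 CPM in WT medium and 15.2, 20.3 and 8.42 CPM in WT LPS libraries, and 25.6, 14.3 and 10.5 against 24.0, 11.8 and 13.7 CPM in Scnn1b-Tg AMs. The groups overlapped, the pools differed by more than the treatment, and pool Tg 19 was higher with LPS. The log2 fold change was -0.28 with an SE of 0.16 for WT AMs and -0.01 with an SE of 0.16 for Scnn1b-Tg AMs (edgeR adjusted p = 0.223 and 0.986). Top2a, topoisomerase II alpha, read 14.0, 17.2 and 10.1 CPM in WT medium and 13.2, 15.7 and 5.55 CPM in WT LPS libraries, with log2 fold changes of -0.37 and -0.29 in WT and Scnn1b-Tg AMs. Ncapg, a condensin subunit, changed by -0.53 and -0.26, and neither gene was called.

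Promoters of mitotic genes often carry a cell cycle homology region (CHR), which the MuvB complex binds, beside CCAAT boxes, which NF-Y binds, whereas E2F factors bind a GC-rich core in S phase promoters. A RefSeq window of 300 bases (GRCm38.p6, 250 before to 50 after a start) was found for 35 of the 41 genes. Both strands were searched for each motif. The CHR was spelled TTTGAA, with the variant spelling TTCGAA also taken, and the CCAAT box was spelled CCAAT. An E2F core was taken as TTCCCGC, or instead as the related word TTGGCGC, or likewise as the word TTGCCGC, or finally as the word TTCGCGC. The CHR was in the windows of 17 of 21 mitotic genes and 2 of 14 replication and G1/S genes, beside 21.7% of all 27025 genes with a window. CCAAT was in 18 of 21 and 8 of 14, beside 41.1%, and both motifs together in 16 and 2, beside 8.61%. The E2F core was in 4 of 21 and 8 of 14, beside 10.9%. Set against the LPS response, the CHR was in 10 of 17 genes that were lower with LPS and in 9 of 18 others. CCAAT was in 13 of 17 and 13 of 18, and the E2F core in 4 of 17 and 8 of 18. These differences were not tested. The windows of 3 genes lower in both genotypes with a CHR (Kif23, chr9:61946750-61947049, minus strand; Cenpa, chr5:30666636-30666935, plus strand; Ccnb2, chr9:70421505-70421804, minus strand) are shown with that of Mcm3 (chr1:20820263-20820562, minus strand), which holds E2F cores, and that of Bub1b (chr2:118597961-118598260, plus strand), which holds the CHR and CCAAT and rose. They read 5′ to 3′ on the strand of the gene, with CHR, CCAAT and E2F core letters of either strand in capitals.
Kif23: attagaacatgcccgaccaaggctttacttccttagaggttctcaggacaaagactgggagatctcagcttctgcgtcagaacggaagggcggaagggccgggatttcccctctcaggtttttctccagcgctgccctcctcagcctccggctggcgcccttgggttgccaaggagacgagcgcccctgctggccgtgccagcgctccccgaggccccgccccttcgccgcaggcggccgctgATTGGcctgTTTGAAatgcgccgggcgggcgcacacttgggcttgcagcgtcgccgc
Cenpa: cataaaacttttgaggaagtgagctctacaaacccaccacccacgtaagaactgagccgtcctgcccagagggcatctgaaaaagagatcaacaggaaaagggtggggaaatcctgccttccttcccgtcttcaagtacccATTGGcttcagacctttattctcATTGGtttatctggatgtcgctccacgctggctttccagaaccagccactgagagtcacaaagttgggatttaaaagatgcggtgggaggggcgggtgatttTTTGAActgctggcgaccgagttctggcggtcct
Ccnb2: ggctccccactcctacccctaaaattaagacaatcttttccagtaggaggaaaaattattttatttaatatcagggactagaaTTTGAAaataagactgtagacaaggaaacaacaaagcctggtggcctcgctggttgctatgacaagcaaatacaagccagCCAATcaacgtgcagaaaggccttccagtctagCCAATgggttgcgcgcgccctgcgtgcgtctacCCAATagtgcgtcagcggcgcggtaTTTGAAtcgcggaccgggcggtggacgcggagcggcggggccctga
Mcm3: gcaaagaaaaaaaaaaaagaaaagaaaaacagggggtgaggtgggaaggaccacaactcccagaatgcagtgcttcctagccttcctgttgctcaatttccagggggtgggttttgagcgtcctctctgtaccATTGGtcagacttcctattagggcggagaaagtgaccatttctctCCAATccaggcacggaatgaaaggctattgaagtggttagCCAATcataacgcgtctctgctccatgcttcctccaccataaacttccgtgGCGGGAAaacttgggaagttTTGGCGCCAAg
Bub1b: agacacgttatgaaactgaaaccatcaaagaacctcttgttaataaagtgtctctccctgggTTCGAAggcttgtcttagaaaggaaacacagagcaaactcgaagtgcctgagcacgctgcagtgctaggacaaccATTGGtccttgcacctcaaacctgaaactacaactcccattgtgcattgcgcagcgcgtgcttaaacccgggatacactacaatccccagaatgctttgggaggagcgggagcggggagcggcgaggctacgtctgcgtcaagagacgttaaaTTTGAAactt

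The genes varied as much between pools as with LPS. The batch term of the same fit was tested after the pools were seen to differ. In batch 2, 29 of the 41 genes were lower and 0 higher than in batch 1, where 8.11% of all genes tested were lower and 4.15% higher. The median log2 difference of the 41 genes was -0.72, beside 0.01 over all genes. Of the 25 mitotic genes 22 were lower in batch 2 (median log2 difference -0.85), and of the 16 replication and G1/S genes 7 (median -0.33). Bub1 had the largest difference (-1.45, edgeR adjusted p = 0.0013), and Mki67, Top2a and Ncapg, which LPS did not change to the threshold, differed by -0.94, -1.19 and -1.14 on the log2 scale. Bub1b and Tk1 did not pass (-0.10 and 0.06). A batch holds 3 pools and, by their numbers, both libraries of a pool come from the same animals. This test then treats 6 libraries as independent that are not. With the pool as a random effect, limma called 26 genes lower and 0 higher, where 3.96% of all genes were lower, and by the mean of each pool all batch 2 pools were below all batch 1 pools for 30 genes, beside 15.3% of all genes. Library preparation and the animals of a pool cannot be told apart here.

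**Figure D3:**
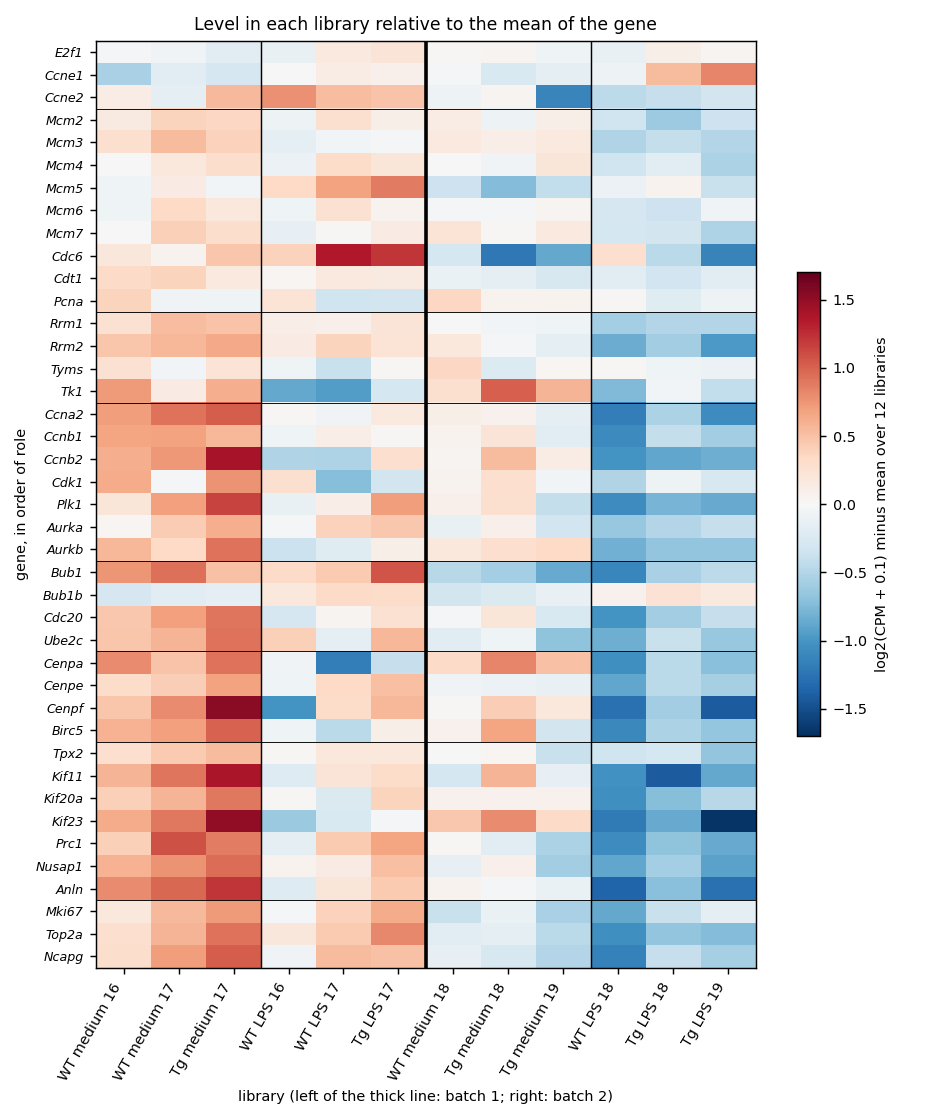
Level of each of the 41 genes in each library, as log2(CPM + 0.1) minus the mean of that gene over the 12 libraries, with batch 1 left and batch 2 right of the thick line and medium before LPS in each. Mitotic genes are highest in the batch 1 medium libraries and lowest in the batch 2 LPS libraries, and Bub1b is higher in the LPS libraries of both batches.

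The 5 genes outside the lists whose levels followed the mean of the 41 genes most closely over the 12 libraries, after removal of group means, were Rmnd5a (r = 0.995), Tmed7 (0.988), Mreg (0.983), Utp15 (0.981) and Mbnl1 (0.981), out of 10945 genes compared. Libraries of a pool share a batch and, by their numbers, animals, and the batch was not removed, so these values describe a pattern over pools.

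None of the 41 genes was called between the genotypes. In medium, 0 genes were called by edgeR between Scnn1b-Tg and WT AMs, where 0.262% of all genes tested were. With LPS 0 were called, beside 0.051%, and for the difference in LPS response 0 were called, beside 0.0%. DESeq2 and limma with the pool as a random effect also called 0 in each. At an unadjusted p under 0.05 there were 3 genes in medium, 6 with LPS and 1 for the difference in response, beside 13.0, 6.78 and 5.79% of all genes. The median log2 difference, Scnn1b-Tg minus WT, was 0.12 in medium and 0.24 with LPS, and 30 and 32 of the 41 genes had positive values. Single fitted log2 differences ranged from -0.27 to 0.66 in medium and from -0.45 to 0.65 with LPS, and none passed the adjusted p threshold. The lowest adjusted p was 0.223 in medium and 0.288 with LPS. Ccnb2 had log2 differences of 0.52 (SE 0.16) in medium and 0.51 (SE 0.17) with LPS. Mki67 had 0.22 and 0.50.

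Other genes of the pathway, named as those with the largest changes in each list, included larger changes than any of the 41. Among 46 further mitosis genes, 17 were lower and 0 higher in WT AMs (beside 15.7% lower and 15.2% higher of all genes tested), and 13 were lower and 2 higher in Scnn1b-Tg AMs (beside 17.8% and 18.8%), with median log2 fold changes of -0.54 and -0.43. Cdc25b, a phosphatase that activates CDK1, averaged 62.9 ± 14.3 CPM without and 23.9 ± 4.79 CPM with LPS in WT AMs, and 64.2 ± 7.93 and 20.9 ± 4.68 CPM in Scnn1b-Tg AMs (mean ± SD, n = 3 each), with log2 fold changes of -1.40 and -1.63. The kinetochore genes Knl1 and Nuf2 were called lower in WT (log2 -1.59 and -1.02) and not in Scnn1b-Tg AMs (-0.74 and -0.85). Kif2c was called lower in Scnn1b-Tg AMs (-1.16) and not in WT (-0.49). With the pool as a random effect, limma called Knl1, Nuf2 and Kif2c lower in both genotypes, and no difference between the genotypes passed for them. The condensin gene Ncapd2 was lower in both (-0.73 and -1.09). In batch 2, 28 of the 46 were lower and 0 higher than in batch 1, beside 8.11% and 4.15% of all genes. Of 46 further replication genes, 8 were lower and 3 higher in WT, and 11 lower and 6 higher in Scnn1b-Tg AMs. Beside the shares of all genes given above, fewer of them were higher in both genotypes. The share lower was near that of all genes in WT and somewhat above it in Scnn1b-Tg AMs. These differences from all genes were not tested. Rfc2, of the clamp loader, went from 44.0 ± 2.83 to 22.7 ± 1.59 CPM in WT AMs (log2 -0.95, and -1.14 in Scnn1b-Tg AMs). Gmnn (geminin, which blocks re-licensing), Pole2 and Wdhd1 were also lower in both, at -0.82, -0.85 and -0.68 in WT, and Rpa2, of the single-strand binding complex, was higher in both (0.54 and 0.85).

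Upstream regulators were called in both directions. All genes tested, as the background for the lists that follow, were 15.2% higher and 15.7% lower in WT and 18.8% higher and 17.8% lower in Scnn1b-Tg AMs, and these lists are short, so 1 or 2 genes move such shares. Of 19 E2F, retinoblastoma and MuvB genes, 5 were higher and 4 lower in WT and 4 were higher and 5 lower in Scnn1b-Tg AMs. E2f2 read 20.2, 28.0 and 21.6 CPM in WT medium and 6.01, 6.37 and 3.57 CPM in WT LPS libraries, and 28.4, 24.7 and 24.3 against 6.11, 5.25 and 2.98 CPM in Scnn1b-Tg AMs. The groups were far apart, with log2 fold changes of -2.16 (edgeR, SE 0.22, adjusted p = 2.71e-05) and -2.45 (adjusted p = 8.02e-06), while E2f1 did not change to the threshold. Rbl2, the p130 pocket protein of resting cells, was lower in both (-0.67 and -0.91), and E2f3 and E2f5 were higher (0.64 and 1.17 in WT, 0.95 and 1.34 in Scnn1b-Tg AMs). Of 13 G1 cyclins and kinases tested, 4 were higher and 1 lower in WT and 5 higher and 0 lower in Scnn1b-Tg AMs. Cdk6 went from 20.3 ± 2.32 to 39.3 ± 4.11 CPM in WT AMs (log2 0.95, and 1.12 in Scnn1b-Tg AMs) and Cdc25a, the phosphatase for CDK2, from 11.9 ± 1.23 to 20.2 ± 2.62 CPM (log2 0.75 and 0.92). Mycl, a MYC family gene, held at most 8 counts in each medium library and 124 to 240 counts with LPS, with 2.46 ± 0.267 CPM in stimulated WT AMs and 4.09 ± 0.677 CPM in stimulated Scnn1b-Tg AMs. Against a floor of 8 counts per library it was at least 14.9-fold higher with LPS in WT and at least 26.3-fold higher in Scnn1b-Tg AMs.

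Among 15 inhibitors and quiescence genes tested, 3 were higher and 6 lower in WT (beside 15.2% and 15.7% of all genes), and 3 higher and 7 lower in Scnn1b-Tg AMs (beside 18.8% and 17.8%). Cdkn2b encodes p15INK4b, an inhibitor of CDK4 and CDK6. It read 4.71, 2.87 and 5.83 CPM in WT medium and 39.5, 23.1 and 38.9 CPM in WT LPS libraries, and 4.31, 4.05 and 4.09 against 40.1, 38.3 and 47.0 CPM in Scnn1b-Tg AMs. No LPS library came near a medium library, and the log2 fold changes were 2.93 (edgeR, SE 0.25, adjusted p = 7.48e-06) and 3.33 (adjusted p = 2.31e-06). Klf2 and Klf4, Krüppel-like factors linked to quiescence, were lower in both (-1.37 and -1.20 in WT, -1.60 and -1.71 in Scnn1b-Tg AMs). Of 16 DNA damage genes, 4 were higher and 2 lower in WT and 4 higher and 3 lower in Scnn1b-Tg AMs, against that background. Gadd45b, a stress-induced gene, went from 56.3, 36.6 and 45.9 CPM to 249, 160.0 and 245 CPM in the WT pools (log2 2.22, and 2.55 in Scnn1b-Tg AMs) and Mdm2, the ubiquitin ligase of p53, from a mean of 77.5 ± 3.38 to 155 ± 12.1 CPM (1.00 and 1.12). Gadd45g and the checkpoint kinase Chek2 were lower in both, at -1.29 and -1.36 in WT and -1.09 and -1.34 in Scnn1b-Tg AMs. Of 7 self-renewal regulators tested, 2 were higher and 1 lower in each genotype, against the same background. Bhlhe40, a regulator of AM self-renewal, was lower (-0.49 and -0.72), and the growth factor receptor genes Csf1r and Csf2rb were higher (0.58 and 0.52 in WT, 0.62 and 0.41 in Scnn1b-Tg AMs). In batch 2, 1 of the 15 inhibitor genes was lower and 1 higher than in batch 1, 0 of the 13 G1 genes were called, and 5 of the 19 E2F, retinoblastoma and MuvB genes were lower, beside 8.11% lower and 4.15% higher of all genes.

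**Figure D4:**
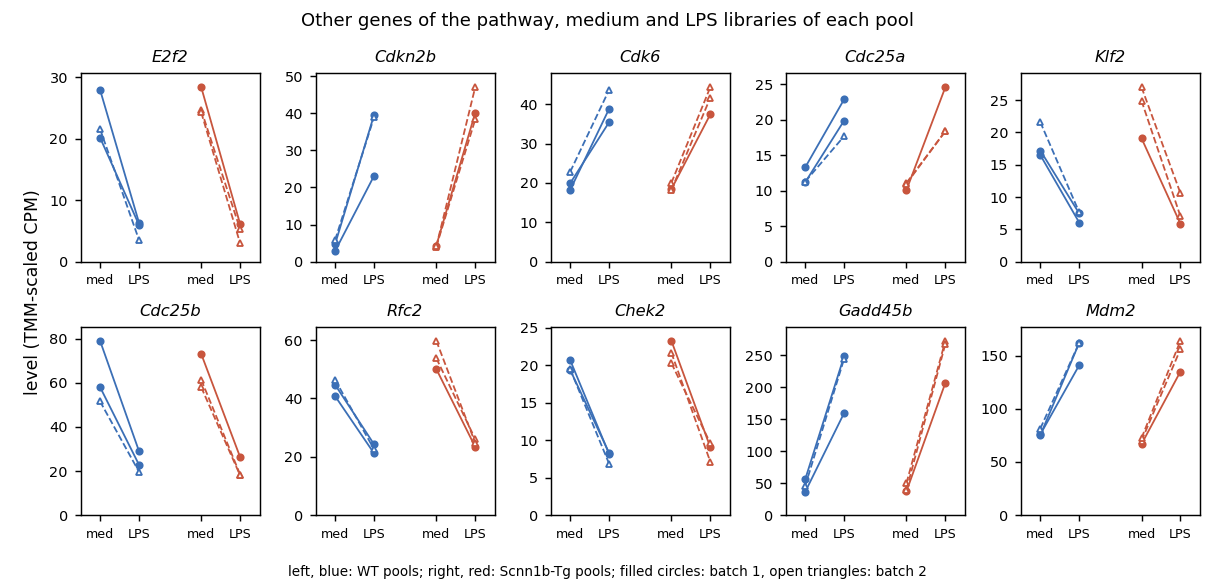
Level (TMM-scaled CPM, linear axes from 0) of 10 other genes of the pathway in the medium and LPS library of each pool, drawn as in the plot of the members by pool. E2f2, Klf2, Cdc25b, Rfc2 and Chek2 go down and Cdkn2b, Cdk6, Cdc25a, Gadd45b and Mdm2 go up in all 6 pools, with no overlap between medium and LPS libraries of a genotype.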

How the data were processed

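The authors deposited estimated counts: per their methods and the labels, reads were aligned to mm10 with HISAT2 without regard to strand, quantified with StringTie, and turned into whole-number counts per gene. The conversion from coverage used a nominal read length, and 1 read can be worth several counts, and intervals of such counts would cover counting error only. Symbols, positions and exon lengths came from GENCODE on mm10, in which 20132 of the 20551 gene IDs were found. Exons of 12 of the 41 genes (Ccne2, Mcm7, Tk1, Ccna2, Plk1, Cdc20, Ube2c, Kif20a, Prc1, Nusap1, Top2a and Ncapg) overlap another gene, as do those of Cdk6, E2f5, Rbl2, Rfc2, Pole2, Wdhd1, Cdc25b, Ncapd2, Bhlhe40, Csf1r and Csf2rb, and their values are uncertain.

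The low-count filter was filterByExpr with a minimum count of 10 and a minimum total of 15. The test was the edgeR 4.0.16 quasi-likelihood F-test (R 4.3.3) with TMM factors, group and batch as terms, over all 12 libraries, two-sided, with Benjamini-Hochberg adjustment over the 13729 genes and a threshold of 0.05. It was tested on simulated data. Levels are TMM-scaled CPM, and changes within a pool are differences of log2 CPM with a prior count of 2. The floor for low genes was 8 counts per library, about the worth of 3 reads on this scale. DESeq2 1.42.0, limma 3.58.1, other scalings, filters and sample sets were run as alternatives. Labels number the pools, and by these numbers the medium and LPS libraries of a pool came from the same animals. Their deviations from the group means correlated with r of 0.137 to 0.335 in the 6 pools. The libraries of a pool also share a batch, which was not removed, so these values cannot show that the animals were shared. Within a group each library is a pool of animals, so p-values of the main fit measure the spread between pools within group and batch. That fit treats the medium and LPS libraries of a pool as independent. With the pool as a fixed effect, p-values measure the spread of the change between pools.

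The members and gene lists were chosen with earlier results of these data known. Genes were named by rules: every member, the members with the largest change in each comparison, and from each other list the 3 genes with the largest change in each genotype among those called with a mean of at least 1 CPM. Promoter sequences are from RefSeq (GRCm38.p6). The counts of the self-renewal list leave out 1 gene that is not reported here.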

Additional observations from a re-analysis of the deposited data

Results flagged for a closer look

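Every WT pool had a lower and every Scnn1b-Tg pool a higher value of Bub1 with LPS, although the change in Scnn1b-Tg AMs was not called (edgeR adjusted p = 0.0962). The log2 change with LPS was -0.42, -0.51 and -0.67 in pools WT 16, 17 and 18 and 0.58, 0.03 and 0.42 in pools Tg 17, 18 and 19, a difference between the means of the pools of 0.87. In the test of the difference itself the fitted value was 0.88 (edgeR unadjusted p = 0.0017), and with adjustment over all genes it did not pass (adjusted p = 0.425). With LPS Bub1 read 0.63 higher on the log2 scale in Scnn1b-Tg than in WT AMs (unadjusted p = 0.00194), and in medium the difference was -0.25. Bub1 had 3.51, 3.80 and 1.23 CPM in the WT LPS libraries, and the change in pool Tg 18 was close to 0. It was the member with the largest difference between the batches, and both batches showed the opposite signs.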

How the results depend on the processing

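No called gene changed direction in any of the 28 alternatives run for each LPS comparison. Mcm3, Tk1, Ccnb2, Aurkb, Cenpa and Kif23 were lower and Bub1b higher in both genotypes under all 28. Calls that held least often were Rrm2 (10 of 28), Cenpf (12) and Bub1, Kif11 and Nusap1 (19 each) in WT and Mcm2 (16) in Scnn1b-Tg AMs. Without a batch term 6 genes were called lower in each genotype, no larger a share than that of all genes in the main fit, and the cause was not tested. With the pool as a random effect 2 genes were higher in WT AMs. Leaving out 1 library or 1 pool (the latter chosen after seeing the data) gave 11 to 23 genes lower and 1 to 2 higher in WT AMs, and 9 to 20 lower and 1 to 3 higher in Scnn1b-Tg AMs. All other alternatives gave 14 to 24 genes lower in WT and 16 to 23 in Scnn1b-Tg AMs. Counts between genotypes and for the difference in LPS response were 0 in every setting.

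With library sizes alone as the scaling, the median of all genes shifted by -0.08 in WT and -0.1 in Scnn1b-Tg AMs, and 23 and 21 genes were lower. Paired by pool, 24 and 23 genes were lower with the pool as a fixed effect. With 3 libraries a group and levels down to 12 counts, small changes of low genes were not detectable.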
